A study of Mus musculus with 9 samples.

Results

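V4 is 1 of 10 clusters of visceral motor neurons that the authors labelled among the cholinergic nuclei of the adult mouse spinal cord. Its members were all nuclei that carry the label V4 in the deposited annotation, 662 of 5613 visceral nuclei and of 16042 cholinergic nuclei with expression values. Every V4 nucleus had values. Visceral motor neurons, also called preganglionic autonomic neurons, are cholinergic cells whose axons leave the cord and contact neurons of peripheral ganglia, which in turn reach smooth muscle, heart and glands. Sympathetic neurons of this kind lie mainly in the thoracic and upper lumbar cord, and parasympathetic ones in the sacral cord. The genes given to mark V4 were *Ccbe1*, which encodes a secreted matrix protein that helps to process the lymphatic growth factor VEGF-C, and *Fbn2*, which encodes the microfibril protein fibrillin-2.

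Nuclei came from 12 mice aged 8 weeks that were heterozygous for both *Chat-iCre* and *SUN-SfGFP*, so that Cre driven from the choline acetyltransferase locus tagged the nuclear envelope of cholinergic cells with GFP. The mice were combined into 3 pools of 4, a mixed pool of 2 males and 2 females (replicate 1), a male pool (replicate 2) and a female pool (replicate 3). From every pool the cord was cut into a cervical, a thoracic and a lumbar/sacral piece, which gave 9 libraries, 3 per region. The label of lumbar/sacral libraries does not separate sympathetic from parasympathetic segments, all groups carried the same alleles, and sex was carried by 1 pool each. Values are corrected counts that a regression model of sequencing depth had already adjusted, so they are not raw molecules. They were summed over the V4 nuclei of a library and scaled to a total of 1000000 (CPM), and differences are on the scale of log2(CPM + 5).

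V4 nuclei were found in every library. There were 107, 44 and 30 in the cervical, 145, 44 and 132 in the thoracic and 67, 54 and 39 in the lumbar/sacral libraries, in the order of replicates 1, 2 and 3. The median V4 nucleus held 8492.5 corrected counts and 3519 detected genes. Library medians ran from 4915 to 16210.5 corrected counts, and the lumbar/sacral libraries, at 4915, 7227 and 5844, were below every cervical and thoracic one. Of barcode sequences, 33 occurred in more than 1 library. This touched 2 V4 nuclei, and no V4 barcode was shared with a V4 nucleus of another library.

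The cervical and thoracic libraries of the male pool went against their labels. *Hoxc5*, a homeobox gene that is expressed from the lower neck downwards, was at 16.1 and 15.6 CPM in skeletal motor neurons of the other two cervical libraries but at 82.5 CPM in the library labelled cervical replicate 2. It was at 102 and 94.5 CPM in thoracic replicates 1 and 3 but at 9.44 CPM in the library labelled thoracic replicate 2. *Hoxa9*, a marker of more caudal levels, split the same libraries in skeletal motor neurons, with 0.145, 9.04 and 0 CPM in the cervical and 11.9, 0.629 and 15.8 CPM in the thoracic replicates. In V4 itself *Hoxc5* was at 31.6, 69.1 and 55.7 CPM in the cervical and at 80.4, 29.4 and 67.9 CPM in the thoracic replicates, a less clear order. Both libraries are used here under the labels they carry, and each result that rests on the cervical or thoracic label is given with and without them. Cervical and thoracic libraries together are called rostral below, a group whose membership an exchange of these libraries would not alter. *Xist* and *Uty*, read from the X and the Y chromosome, matched the sex of every pool in V4.

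**Figure D1:**
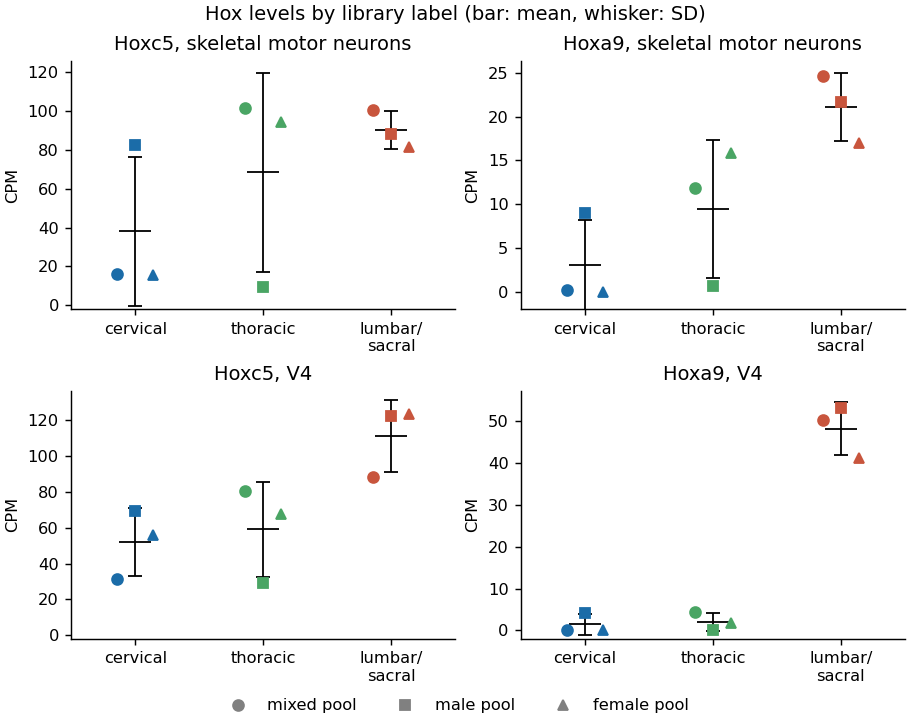
*Hoxc5* and *Hoxa9* in skeletal motor neurons and in V4 by library label, in CPM. In skeletal motor neurons the male pool (squares) lies apart from the other pools in the cervical and thoracic groups, for example at 82.5 against 16.1 and 15.6 CPM of *Hoxc5* in cervical libraries, whereas the 3 lumbar/sacral libraries lie together.

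V4 had the transcripts of a cholinergic visceral motor neuron. *Chat*, which encodes the enzyme that makes acetylcholine, ran from 188 to 279 CPM over the 9 libraries, and *Slc5a7*, the choline transporter, from 205 to 514 CPM. *Fbn2* was found in 86.4% ± 8.63 of V4 nuclei (SD, n = 9 libraries), in 84.3% ± 10.2 of the other visceral nuclei, in 14.4% ± 11.4 of skeletal motor neurons and in 5.58% ± 2.16 of cholinergic interneurons. It therefore marked visceral motor neurons at large and not V4. *Ccbe1* was found in 47.6% ± 27.1 of V4 nuclei, in 8.78% ± 3.78 of other visceral nuclei, in 27.9% ± 10.5 of skeletal motor neurons and in 5.45% ± 1.45 of interneurons, taken here as the background, whose median of 6986 corrected counts was below the 8492.5 of V4. With every nucleus thinned to 4000 corrected counts, which left out 8 V4 nuclei, all from lumbar/sacral replicate 1, these shares were 36% in V4, 4.84% in other visceral nuclei and 2.94% in interneurons.

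The marker *Ccbe1* went against the label in the caudal cord. It was found in 53.3%, 77.3% and 53.3% of V4 nuclei of the cervical and in 80.7%, 52.3% and 68.9% of the thoracic libraries, but in only 11.9%, 13% and 17.9% of those of the lumbar/sacral libraries. After thinning, the mean was 49.1% in rostral and 9.66% in lumbar/sacral V4, where other lumbar/sacral visceral nuclei had 5.96%. Hence most V4 nuclei of the lumbar/sacral libraries carried the label without a detected *Ccbe1* count. *Zeb2*, a transcription factor gene used as a marker of visceral motor neurons, showed the same split, with 78.6 to 96.3% of V4 nuclei in the rostral libraries and 28.4%, 35.2% and 30.8% in the lumbar/sacral ones.

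Markers of other cells were low. The summed level of 8 oligodendrocyte markers lay between 57.5 and 101.5 CPM in rostral and between 66.1 and 91.5 CPM in lumbar/sacral V4, near the 90.6 CPM of skeletal motor neurons. The precursor markers *Pdgfra* and *Olig2* were at 0 in every V4 sum, and the 5 measured markers of that list summed to at most 10.65 CPM. The 8 markers of skeletal motor neurons summed to between 63.6 and 119 CPM in rostral and between 144 and 201 CPM in lumbar/sacral V4, against 1773 CPM in skeletal motor neurons. The 7 measured microglia markers summed to between 25 and 71.5 CPM in rostral and between 40.9 and 114 CPM in lumbar/sacral V4, with *C1qb* at 0. The 8 interneuron markers summed to between 26.2 and 62.2 CPM in rostral and between 37.8 and 96.1 CPM in lumbar/sacral V4, against 2267 CPM in interneurons. The skeletal list was thus higher in every lumbar/sacral V4 sum than in every rostral one, and its part in the regional results was not tested.

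The share of V4 among visceral nuclei addressed whether this type is spread evenly along the cord. V4 made up 9.94%, 10.5% and 8.02% of visceral nuclei in the cervical libraries, 16.8%, 10.9% and 13.5% in the thoracic libraries and 9.96%, 12% and 10.3% in the lumbar/sacral libraries. The thoracic values lay above the cervical ones, and the lumbar/sacral values lay within the range of the 6 rostral libraries. The lumbar/sacral mean of 10.8% ± 1.09 (SD, n = 3) differed from the rostral mean of 11.6% ± 3.11 (SD, n = 6) by -0.85 percentage points, less than the libraries varied among themselves (two-sided exact permutation test, 84 groupings, p = 0.702). V8 is nearly absent from rostral libraries and takes up 116 to 225 of the visceral nuclei of each lumbar/sacral library. Without V8 in the denominator V4 made up 15%, 16.2% and 15.3% of lumbar/sacral visceral nuclei, and the difference turned to 3.85 percentage points (exact permutation test, p = 0.0952). The cervical mean of 9.48% ± 1.29 was below the thoracic mean of 13.8% ± 2.96 by 4.28 percentage points, and p = 0.1 by the exact permutation test, which is the smallest value that 3 against 3 libraries allow. Without the cervical and thoracic libraries of the male pool the difference was -6.18 percentage points (exact permutation test, p = 0.333, the smallest value for 2 against 2). Among all cholinergic nuclei V4 made up 3.79%, 5.89% and 2.11% in the cervical, 9.43%, 2.52% and 8.10% in the thoracic and 2.59%, 3.05% and 2.19% in the lumbar/sacral libraries. With that denominator the regions overlapped under these labels. The lumbar/sacral minus rostral difference was -2.70 percentage points (exact permutation test, p = 0.202) and the cervical minus thoracic difference was -2.75 (exact permutation test, p = 0.3). The cervical and thoracic overlap came from the male pool. Without its libraries the cervical values were 3.79% and 2.11%, below the thoracic values of 9.43% and 8.10%, which was not tested. A share of nuclei also depends on how well each type survives isolation and sorting, which these data do not measure.

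**Figure D2:**
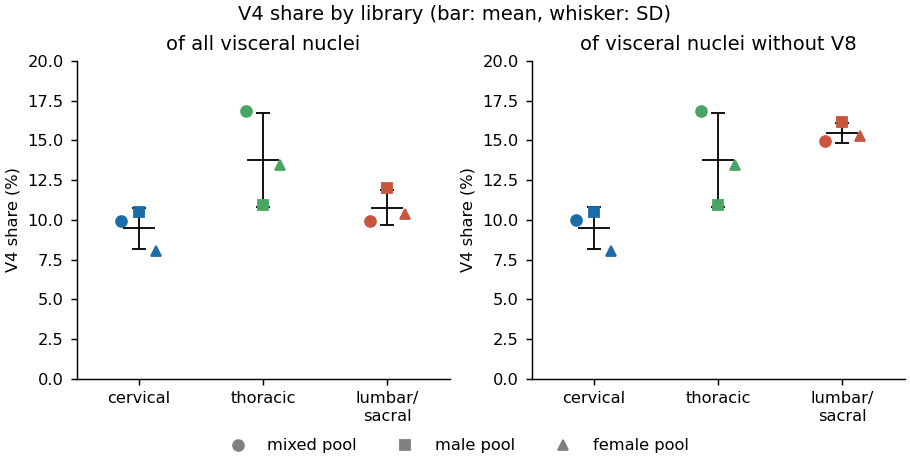
V4 nuclei as a percentage of all visceral nuclei (left) and of visceral nuclei without V8 (right), by library, with the mean and SD of each region. The 3 lumbar/sacral libraries lie at 9.96 to 12% on the left, within the range of the rostral libraries, and at 15 to 16.2% on the right, above all rostral libraries except thoracic replicate 1.

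V4 was next set against the other visceral clusters of the same library. The clusters were drawn by the authors from the expression of these same nuclei, so that the differences describe V4 and carry no test. Of 13161 genes that reached 10 CPM in 3 or more sums, 136 were higher in V4 than in the mean of the other visceral clusters by at least 1 on the log2 scale and in every library (1.03%), and 79 were lower (0.6%). Only 3 genes, *Vav3*, *Oprm1* and *Nox4*, were above the highest other visceral cluster by at least 1 on average and in every library (0.0228%). Among the 136 and 79 genes were 26 predicted gene models. Within a library, Spearman's rank correlation of log2(CPM + 5) between V4 and V2 was 0.840 to 0.950 over the 9 libraries. Between V4 and V9 it was 0.863 to 0.940 over the 6 rostral libraries, and between V4 and V8 0.841 to 0.881 over the 3 lumbar/sacral ones. These coefficients are across genes, which are not independent, and over different libraries, so they give no order of likeness. The same counts were 142 and 77 without the cervical and thoracic libraries of the male pool.

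Signalling molecules and receptors were among the leading genes. *Cartpt*, on chr13:99898489-99901091 of GRCm38, encodes the precursor of the neuropeptide CART and was higher in V4 than in the other visceral clusters by 3.20 ± 0.96 (log2, SD over 9 libraries). Its level in V4 ran from 16.4 to 537 CPM, with a median of 181 CPM, and in the lumbar/sacral libraries, which alone held enough V8 nuclei, it was at 85.0, 210 and 105 CPM in V4 and at 273 ± 21.2 CPM (SD, n = 3) in V8. *Oprm1*, the µ-opioid receptor, on chr10:6758506-7038198, was at 145 ± 58.2 CPM in V4 and at 65.3 ± 39.2 CPM in V2, the next highest cluster, a margin of 1.06. *Tacr1*, the receptor for substance P, was higher by 2.33 ± 0.33 and lay at 218 ± 50.6 CPM over 9 libraries. In the lumbar/sacral libraries it was at 239, 234 and 210 CPM in V4 and at 302 ± 81.7 CPM in V8. *Il1rap*, an accessory subunit of the interleukin-1 receptor, was higher by 2.31 ± 0.30 and exceeded every other visceral cluster in all 9 libraries. *Cadps2*, which primes dense-core vesicles for release, was higher by 2.09 ± 0.48.

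*Ccbe1* was higher in V4 by 3.12 ± 1.45 and had the largest mean margin over the highest other cluster (1.65), but it was above that cluster in only 7 of 9 libraries. Its excess over the mean of the other clusters was 4.04 in rostral and 1.30 in lumbar/sacral libraries. *Nox4*, which encodes an NADPH oxidase that releases hydrogen peroxide, on chr7:87246096-87398710, was higher by 2.80 ± 0.43 and was at 535 ± 307 CPM in V4 against 214 ± 135 CPM in V2. *Vav3*, a guanine nucleotide exchange factor for small GTPases, on chr3:109340653-109685698, had the steadiest level of the leading genes, 334 ± 64.6 CPM in V4, and 117 ± 67 CPM in V2. *Chodl*, the membrane lectin chondrolectin, was at 87.2 ± 31.5 CPM in V4 over 9 libraries. In V9, which had enough nuclei in the 6 rostral libraries only, *Chodl* was at 79.9 ± 13.2 CPM, so these means cover different libraries. It was at most at 35.3 CPM on average in the remaining visceral clusters. *Itga9*, an integrin subunit, was at 187 ± 67.6 CPM and exceeded every other visceral cluster in all 9 libraries by an average of 0.93. *Cobll1* was among the genes with the largest margins (1.21) although it varied between 2.63 and 73.3 CPM over the libraries.

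**Figure D3:**
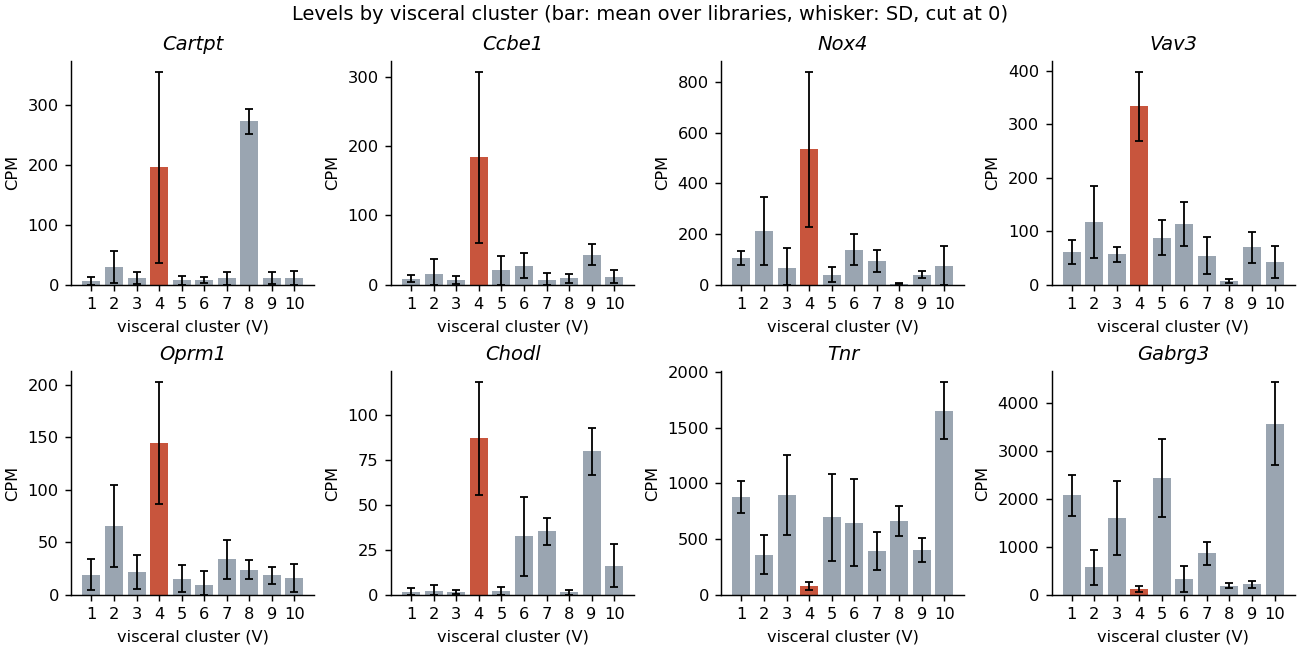
Mean level in CPM of 6 genes that were high and 2 that were low in V4 (red) in each visceral cluster, with the SD over the libraries in which a cluster had at least 10 nuclei (V4 in 9, V8 in 3). *Ccbe1*, *Nox4*, *Vav3* and *Oprm1* were highest in V4, *Cartpt* was also high in V8, in lumbar/sacral libraries only, and *Chodl* in V9, and *Tnr* was at 81.5 CPM in V4 against at least 360 CPM elsewhere.

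Adhesion and matrix genes went both ways. Of 46 axon guidance genes with values, 4 were higher in V4 and none was lower, beside 1.03% higher and 0.6% lower of all genes. *Ntng1*, a membrane-anchored netrin, was higher by 2.33 ± 0.39, and the netrin receptor genes *Unc5d* (1.34) and *Unc5c* (1.02) and the ephrin gene *Efnb2* (1.24) followed. Among cadherins *Cdh12* (2.08) and *Cdh6* (1.96) were higher, and *Cdh11* (-1.12) and *Pcdh15* (-1.20) were lower. *Vcan*, the matrix proteoglycan versican, was higher by 1.99 ± 0.93, and *Edil3*, a matrix ligand of integrins, by 2.02 ± 0.21. The mean margin over the highest other cluster was negative for *Cdh12* (-0.20) and *Edil3* (-0.23). *Col25a1*, a collagen of neuronal membranes, was higher by 2.47 ± 0.91. *Tnr*, which encodes tenascin-R of perineuronal nets, on chr1:159523769-159931729, was the lowest gene of V4 relative to the other clusters (-2.90 on average, -4.21 to -1.40 over the libraries). *Tnr* was at 81.5 ± 36.7 CPM in V4 and between 360 ± 178 CPM in V2 and 1654 ± 258 CPM in V10. *Hmcn1*, another matrix gene (-2.57), *Pappa*, a secreted protease that cleaves proteins binding insulin-like growth factors (-2.64), *Adamtsl1* (-2.13), *Arhgap24* (-2.67), *Ptchd4* (-2.23) and *Syt6* (-2.65) were also among the 10 lowest.

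Of 20 genes for GABA and glycine receptors 3 were lower in V4 and none was higher. Over all genes 0.6% were lower and 1.03% higher, which also stands beside the lists that follow. *Gabrg3* was lower by 2.83 on the log2 scale, with 124 ± 59.9 CPM in V4 against 3578 ± 874 CPM in V10. *Gabrg1* (-2.27 over all libraries, -3.09 in rostral and -0.64 in lumbar/sacral ones), another gamma subunit, and *Glra1* (-1.22), a glycine receptor subunit, were the others. Of 23 glutamate receptor genes *Grm5* (1.47) and *Grin2c* (1.29) were higher and *Gria1* (-1.44) was lower. Pairs of receptors for one transmitter went opposite ways, with *Htr7* higher (1.23) and *Htr2a* lower (-2.17) among serotonin receptors and *Chrm2* higher (1.06) and *Chrm3* lower (-1.54) among muscarinic ones. Of 55 potassium channel genes *Kcnab1* (1.64) and *Kcnt2* (1.17) were higher and *Kcnh7* (-1.73) was lower. The cation channel genes *Piezo2* (2.02 ± 1.29) and *Trpc4* (1.17) were higher, and *Trpc5* (-2.03) and *Trpm3* (-1.44) were lower. The difference of *Piezo2* ran from 0.096 to 3.695 over the libraries, with means of 1.38 in rostral and 3.30 in lumbar/sacral ones. Its mean margin over the highest other cluster was -0.46.

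Among 44 transcription factor genes *Isl1*, *Meis2* and *Foxp1* were higher and *Rorb*, *Tox* and *Zfhx3* were lower. *Isl1*, a LIM-homeodomain factor that specifies motor neurons, on chr13:116298281-116309689, was higher by 2.46 ± 0.38 and was at 61.1 ± 38.8 CPM, near the 58.5 ± 38 CPM of V2. In the lumbar/sacral libraries *Isl1* was at 116.5, 138 and 54.9 CPM in V4 and at 116 ± 29.5 CPM in V8. *Sall3*, a zinc finger factor, was higher by 2.52 ± 0.60, but its margin over the highest other cluster was -0.35 on average. *Meis2* was higher by 1.46 ± 0.63 and *Foxp1* by 1.01 ± 0.32. Of 19 neuropeptide and granin genes with values, *Cartpt* was higher and *Nts*, the neurotensin precursor, was lower (-1.09, at 3.07 CPM). *Gad2*, which encodes an enzyme that makes GABA, was higher in V4 by 1.61 ± 0.72 at 67.8 ± 33 CPM. *Met*, the receptor of hepatocyte growth factor (1.93), and *Gfra1*, a receptor subunit for GDNF (1.18), were higher, and *Bdnf* was lower (-1.34) at 1.46 CPM. Of 13 Hox genes none differed by this measure, which compares clusters within a library.

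V4 was not uniform within a library. Over 8293 genes with a count in 10 to 80% of V4 nuclei, the ratio of variance to mean of the corrected counts had a median of 0.983. It was highest for *Zfp804b* (25.3), *Dcc* (15.4), *Il1rapl2* (15.2), *Ndst4* (11.1), *Col25a1* (9.61), *Htr2c* (9.44), *Lrrc4c* (9.04), *Tmem132d* (8.32), *Dpp10* (7.72) and *Sgcz* (7.33). *Dcc*, the netrin receptor, was found in 15.2 to 63.3% of V4 nuclei by library, and *Col25a1* in 20.5 to 53.7%. These ratios moved with the library, from 0.793 to 64.6 for *Il1rapl2*, and corrected counts were deeper in some libraries than others. For 2 leading genes, chosen after their values were seen, detection did not coincide in all nuclei. In thoracic replicate 1 *Cartpt* was found in 82% of the 117 V4 nuclei with *Ccbe1* and in 67.9% of the others, and in cervical replicate 1 in 33.3% of 57 and 24% of the others. In lumbar/sacral replicate 1 it was found in 25% of the 8 V4 nuclei with *Ccbe1* and in 32.2% of the others, in replicate 2 in 71.4% of 7 and 63.8% of the others, and in replicate 3 in 71.4% of 7 and 15.6% of the others.

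The next comparison asked whether V4 nuclei of the lumbar/sacral cord differ from those of the rostral cord. Of 10255 genes tested with limma, 281 were called at an adjusted p under 0.05 (2.74%), 166 higher (1.62%) and 115 lower (1.12%) in lumbar/sacral V4. The ranks of all genes in V4 sums correlated at 0.865 to 0.958 between rostral libraries, 0.826 to 0.873 between lumbar/sacral libraries and 0.816 to 0.916 across the border. With the pool of mice as a replicate block, which is the source of the 3 libraries that share a number, 432 genes were called. Without the cervical and thoracic libraries of the male pool there were 261, 224 of them among the 281. The lumbar/sacral libraries had fewer counts per nucleus than all others, and this was not tested as a part of the result. In simulated data of this layout 8.95% of calls were false, 27.2% of genes changed by 1 on the log2 scale were called and 94.9% of those changed by 2. The simulation changed only genes with a mean level above the limit of the filter. It gave all genes the same fixed dispersion and had no effect of pool or library, so the real shares may differ.

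Several of the genes with the largest rise in lumbar/sacral V4, *Meox2*, *Phldb2*, *Hoxa9*, *Gldn* and *Tacr3*, were under 10 CPM in every rostral library. *Cped1*, on chr6:21985916-22256404, was at 535, 370 and 201 CPM in the lumbar/sacral replicates and between 7.34 and 28.4 CPM, median 13.1 CPM, in the 6 rostral libraries. The groups were far apart, a log2 difference of 4.19 ± 0.35 (SE, limma adjusted p = 0.000132). *Hoxa9*, on chr6:52223100-52231089, was at 50.4, 53.2 and 41.2 CPM against at most 4.33 CPM in rostral V4 (3.04 ± 0.38, limma adjusted p = 0.000876). *Hoxa7* rose too (2.25 ± 0.36, limma adjusted p = 0.00476), and 2 of the 4 Hox genes tested were called. *Hoxa9* and *Hoxa7* passed the filter on low values through the lumbar/sacral libraries, so that this count depends on that filter. *Meox2*, a mesodermal homeobox gene, was at 94.5, 85.2 and 18.3 CPM against at most 2.82 CPM. *Gldn*, which encodes gliomedin, a ligand of axonal adhesion proteins at nodes of Ranvier, was at 75.6, 50.6 and 32 CPM against at most 4.89 CPM, and *Phldb2* at 34.6, 45.2 and 110 CPM against at most 9.87 CPM. For none of these genes did the 3 lumbar/sacral values overlap with the 6 rostral ones, which held for 7.69% of all genes tested. *Il1rapl2*, a relative of the interleukin-1 receptor accessory proteins, was at 293, 168 and 508 CPM against at most 113 CPM. It lost its call without replicate 1 (limma adjusted p = 0.0752), and kept its sign there.

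Receptors and channels made up the rest of the leading rise. *Tacr3*, the neurokinin B receptor, on chr3:134829007-134934579, was at 88.2, 42.6 and 27.4 CPM in lumbar/sacral V4 and at most at 5.26 CPM in rostral V4 (2.92 ± 0.43, limma adjusted p = 0.00249). It was 1 of 12 peptide and hormone receptors tested and the only one called. *Htr4*, 1 of 6 serotonin receptors tested and likewise the only one called, was at 34.6, 29.3 and 27.4 CPM against at most 5.64 CPM (2.12 ± 0.34). *Tacr3* and *Htr4* passed the filter on low values through the lumbar/sacral libraries, so that these counts depend on that filter. *Piezo2*, the mechanically gated channel of touch and stretch, was at 973, 463 and 531 CPM against 42.7 to 160 CPM (3.02 ± 0.34, limma adjusted p = 0.000464). *Kcnk2*, a stretch-sensitive background potassium channel, on chr1:189207930-189402273, was at 75.6, 95.8 and 101 CPM against 4.89 to 13.6 CPM (2.91 ± 0.27). *Kcnh8*, an ether-à-go-go type channel, was at 120, 55.9 and 50.3 CPM against 1.32 to 16.4 CPM (2.73 ± 0.41). *Epha3*, an ephrin receptor, was at 224, 104 and 142 CPM against 3.27 to 19.7 CPM (3.19 ± 0.35), and *Dcc* at 1225, 708 and 919.5 CPM against 69.7 to 350.5 CPM (2.39 ± 0.28). *Gpc6*, a glypican of the cell surface, was at 466, 346 and 604 CPM against 89.6 to 190 CPM (1.88 ± 0.22).

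Transcription factors, adhesion molecules and the marker itself were among the genes that fell. *Zeb2*, on chr2:44983632-45117395, had the smallest p of all genes. It was at 94.5, 98.5 and 110 CPM in lumbar/sacral V4 and between 468 and 682 CPM, median 556 CPM, in rostral V4 (-2.41 ± 0.16, limma adjusted p = 2.29e-05). *Cdh7*, on chr1:109982431-110140157, was at 37.8, 23.9 and 22.9 CPM against 137 to 188 CPM (-2.36 ± 0.18, limma adjusted p = 8.28e-05). *Cdh6* was at 122.8, 114 and 284 CPM against 678 to 1097 CPM (-2.41 ± 0.27), and *Pcdh7* at 324, 210 and 453 CPM against 1331 to 2929 CPM (-2.53 ± 0.28). *Ccbe1* was at 40.9, 39.9 and 36.6 CPM against 176 to 352 CPM, median 249 CPM (-2.52 ± 0.23, limma adjusted p = 0.000285). For none of these genes did a lumbar/sacral library reach a rostral one. *Tox3* (-1.99 ± 0.25) and *Zfp536* (-2.51 ± 0.43) fell among transcription factors, the latter with its call lost without replicate 1 or replicate 2 (highest adjusted p 0.0824).

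**Figure D4:**
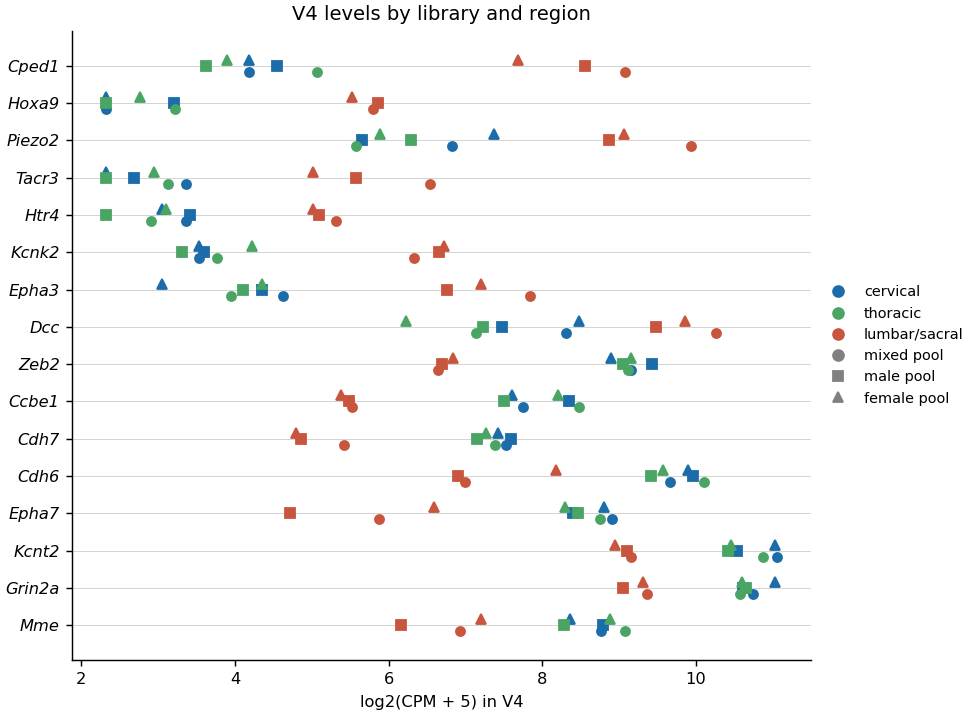
Level of 16 genes in the 9 V4 sums as log2(CPM + 5), coloured by region and marked by pool. For each gene the 3 lumbar/sacral libraries (red) lie on one side of all 6 rostral libraries, above them from *Cped1* to *Dcc* and below them from *Zeb2* to *Mme*.

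The other genes of the leading fall had varied roles. *Epha7*, an ephrin receptor, was at 53.5, 21.3 and 91.5 CPM against 310 to 474 CPM (-2.88 ± 0.32). *Ryr3*, a calcium release channel of the endoplasmic reticulum, was at 31.5, 47.9 and 13.7 CPM against 188 to 346 CPM (-2.88 ± 0.29). *Lypd6*, a modulator of nicotinic receptors, was at 0, 2.66 and 4.58 CPM against 35.2 to 55.3 CPM (-2.80 ± 0.28). A gene that is low in lumbar/sacral V4 can pass the filter on low values through the rostral libraries alone, as *Lypd6* did. Its call depends on that filter. *Fam20a* (-2.78 ± 0.27), *Abca1*, the cholesterol exporter (-2.70 ± 0.32), *Ndst4*, a heparan sulphate modifying enzyme (-2.66 ± 0.27), and *Colec12*, a scavenger receptor (-2.57 ± 0.32), completed the 10. Of the 20 leading genes, all but *Zfp536* and *Il1rapl2* kept their call in each alternative in which they were tested. However, *Meox2*, *Phldb2*, *Hoxa9*, *Gldn* and *Tacr3* were tested in 16 alternatives and the others in 21 to 23. The former passed the filter on low values through the lumbar/sacral libraries and so were not tested without one of these. The same held for *Hoxa7*, *Htr4*, *Sst*, *Gabrg1*, *Trpc7*, *Kcng3*, *Fras1* and *Postn*, each tested in 16 alternatives. Calls of all these genes, and list counts that include them, depend on that filter.

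Receptors for glutamate changed in both directions. Of 22 tested 4 were lower and 1 was higher, with a median of -0.01 beside 0.10 over all genes tested. Of all genes 1.12% were lower and 1.62% higher, which also stands beside the lists that follow. *Grin2a*, an NMDA receptor subunit, was at 652, 527 and 627 CPM against 1516 to 2077 CPM (-1.46 ± 0.17, limma adjusted p = 0.000501). *Grin2c* (-2.24 ± 0.31), *Gria2* (-0.90 ± 0.19) and *Grik1* (-1.57 ± 0.38) were the other lower ones and *Grid1* (1.18 ± 0.19) the higher one, each of them with a call that was lost when 1 replicate was left out. Potassium channel genes went both ways, with 4 of 44 higher and 5 lower. Besides those named above, *Kcng3* (2.21) and *Kcnj3* (1.66) were higher and *Kcnt2* (-1.66), *Kcnq5* (-1.78), *Kcnma1* (-0.97), *Kcnip1* (-0.94) and *Kcnk10* (-0.85) were lower. *Kcnt2*, a sodium-activated channel, was at 567, 546 and 489.5 CPM against 1366 to 2121 CPM and kept its call under every alternative in which it was tested, as *Kcnk2* and *Kcnh8* did. Of 30 calcium, sodium, HCN, TRP and Piezo channels 3 were higher and none was lower, *Piezo2*, *Cacnb2* (1.88 ± 0.28) and *Trpc7* (1.87 ± 0.39). Of 17 GABA and glycine receptors only *Gabrg1* was called, higher by 2.02 ± 0.43 at 18.9, 18.6 and 45.8 CPM against at most 5.57 CPM. Its call was lost without thoracic replicate 2, alone or together with cervical replicate 2, and with a pseudocount of 1 (highest adjusted p 0.128).

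Axon guidance genes also went both ways, with 3 of 42 higher and 6 lower, beside 1.62% higher and 1.12% lower of all genes. *Epha3*, *Dcc* and *Ephb1* (1.90 ± 0.44) were higher, and *Epha7*, *Robo2* (-1.79 ± 0.25), *Ntng2* (-1.54 ± 0.21), *Unc5d* (-1.40 ± 0.22), *Sema3c* (-1.23 ± 0.19) and *Sema5b* (-0.71 ± 0.17) were lower. Of 20 cadherins *Cdh4* (1.16) and *Pcdh17* (1.51) were higher and *Cdh6*, *Cdh7*, *Pcdh7* and *Pcdh11x* (-1.04) were lower. Of 20 matrix genes 5 were higher, namely *Gpc6*, *Gpc5* (2.12), *Postn* (2.44), *Fras1* (2.12) and *Hs3st4* (2.43), and *Ccbe1* alone was lower. None of 11 collagens and none of 14 trophic factor receptors was called. *Ccbe1* was also the only one of 7 genes of the VEGF-C group that was called. Of 32 transcription factors of motor neurons 4 were higher and 2 were lower. *Tshz2* was higher (1.35 ± 0.20) at 1540, 1240 and 1322 CPM against 420 to 888 CPM, as were *Zeb1* (1.13 ± 0.18), *Ebf1* (2.54 ± 0.52) and *Isl1* (1.19 ± 0.28), and *Zeb2* and *Tox3* were lower. *Isl1* lost its call under 13 alternatives, the median of ratios scaling among them (highest adjusted p 0.451).

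Of 14 visceral motor neuron markers *Cpa6* (2.15 ± 0.30) and *Cpne4* (1.54 ± 0.23) were higher and *Zeb2*, *Mme* (-1.93 ± 0.24) and *Nox4* (-1.63 ± 0.32) were lower. *Mme*, which encodes the peptide-degrading enzyme neprilysin, was at 116, 66.5 and 142 CPM against 306 to 532 CPM and kept its call under every alternative in which it was tested. *Nox4* was at 255, 120 and 293 CPM against 414.5 to 1045 CPM and lost its call under 5 alternatives, among them without replicate 1 or 3 (highest adjusted p 0.186). Of 23 genes that marked visceral subtypes in the study, a list taken from these same nuclei and hence no independent evidence, 5 were higher and 4 lower. *Fgf10*, *Sst*, *Pde3a*, *Agbl1* and *Piezo2* were higher, and *Necab1*, *Mob3b*, *Aldh1a1* and *Ccbe1* were lower. *Sst*, the somatostatin precursor and the only one of 13 neuropeptide genes called, was at 40.9, 39.9 and 18.3 CPM against at most 7.34 CPM (2.15 ± 0.41). *Necab1*, a calcium-binding protein, was at 31.5, 23.9 and 13.7 CPM against 61.2 to 94.5 CPM (-1.72 ± 0.23). Of 5 genes of cholinergic transmission *Slc5a7* alone was called, at 274, 205 and 210 CPM against 313 to 514 CPM (-0.84 ± 0.18), and of 8 genes of nitric oxide and cyclic GMP signalling *Prkg1* alone (-1.33 ± 0.24). *Adra1b* was higher (1.57) among 2 adrenergic receptors tested and *Aldh1a1* lower (-1.77) among 5 genes of the retinoic acid pathway. *Zbtb16* (2.02) was the 1 called of 5 skeletal motor neuron markers. No marker of interneurons, oligodendrocytes, astrocytes or microglia, no nicotinic or muscarinic receptor of 3 tested, no fast transmitter gene of 2 and no immediate early or stress gene of 5 was called.

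Of the 76 genes named for this comparison 31 kept their call under every alternative in which they were tested and 45 lost it under 1 or more, which include fits to fewer libraries, whereas none changed sign. The calls of *Sema5b*, *Isl1*, *Grik1*, *Kcnip1*, *Ephb1* and *Slc5a7* were lost under 9 or more alternatives, with highest adjusted p of 0.399, 0.451, 0.449, 0.298, 0.244 and 0.266. The log2(CPM + 5) scale understates the change of genes near 0 in a group, such as *Meox2*, *Hoxa9* and *Lypd6*.

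A further test asked whether the regional difference of V4 differs from that of other visceral motor neurons. For each library the log2(CPM + 5) of V4 minus the mean of V1, V2, V3 and V7, the clusters with at least 10 nuclei in every library, was compared between lumbar/sacral and rostral libraries with limma. Of 12418 genes 491 were called (3.95%), 295 with a more positive (2.38%) and 196 with a more negative (1.58%) regional difference in V4. The values of lumbar/sacral and rostral libraries did not overlap for 8.87% of genes. In simulated data of this layout, with the same simplified settings, 11.1% of calls were false. The count was 386 without the cervical and thoracic libraries of the male pool, 364 with library weights and 212 with the variance trend taken over the mean difference, the last of which shared 201 genes with the 491.

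*Kcnq5*, which encodes a channel of the M-type potassium current, had the smallest p of this test. Its difference of -2.75 ± 0.16 (limma adjusted p = 1.36e-08) was made of a change of -1.78 in V4 and of 0.97 in the mean of the other 4 clusters, among which V2 stood at 3.56 and V1 at -0.79. *Gpc6* rose by 1.88 in V4 and changed by -1.13 in the others (3.01 ± 0.20, limma adjusted p = 5.08e-08). *Sgcz*, a sarcoglycan, changed by 2.82 in V4 and by -0.06 in the others (2.88 ± 0.21). *Tacr3* changed by 2.92 in V4 and by -0.29 in the others (3.21 ± 0.37), and *Kcnh8* by 2.73 and by -0.28. *Ano1*, a calcium-activated chloride channel, changed by 2.90 in V4 and by 0.14 in the others, and *Rspo3*, a secreted enhancer of Wnt signalling, by 2.01 and by -0.78. *Ccbe1* changed by -2.52 in V4 and by 0.68 in the others (-3.20 ± 0.37, limma adjusted p = 1.81e-05). *Lypd6* changed by -2.80 and by 0.52, *Fam20a* by -2.78 and by -0.19, and *Cdh8* by -1.27 and by 1.59. *Zeb2* changed by -2.41 in V4 and by -0.14 in the others (-2.26 ± 0.19, limma adjusted p = 5.17e-07). *Hoxa9* changed by 3.04 in V4 and by 2.25 in the others, and this difference was not called (0.78 ± 0.32, limma adjusted p = 0.23). *Cped1* changed by 4.19 in V4 and by 2.21 in the others (1.98 ± 0.29, limma adjusted p = 0.000242), so that it moved the same way in both and further in V4.

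**Figure D5:**
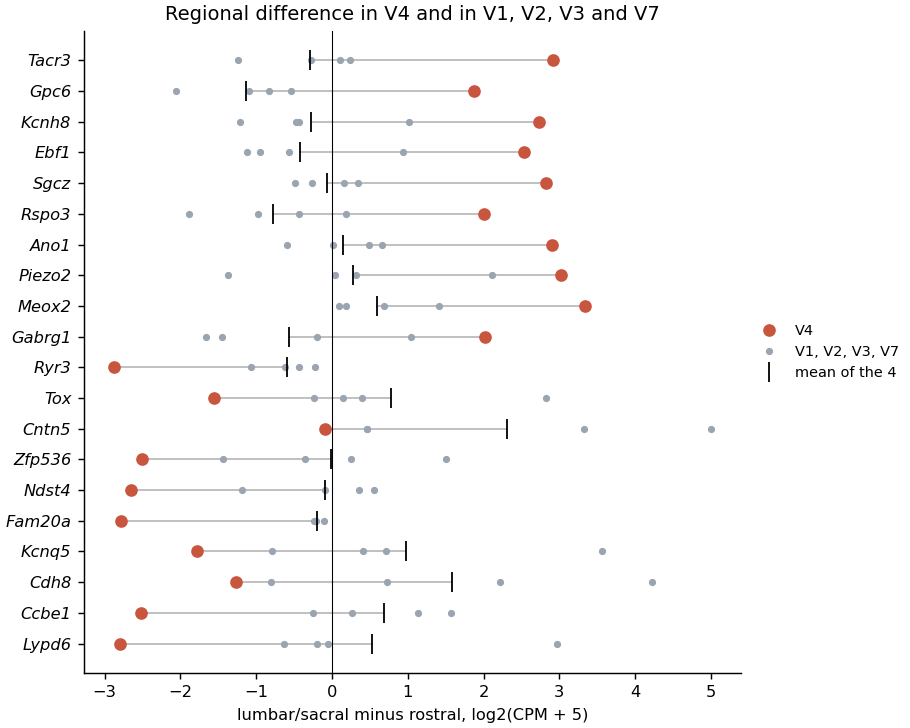
Lumbar/sacral minus rostral difference of log2(CPM + 5) in V4 (red) and in V1, V2, V3 and V7 (grey, bar for their mean) for the 10 genes with the most positive and the 10 with the most negative difference between V4 and the mean of the others. V4 lies beyond all 4 other clusters for each gene, which this choice of genes favours. It lies at 2.92 for *Tacr3*, where the mean of the others is -0.29, and at -2.80 for *Lypd6*, where that mean is 0.52.

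Within the rostral cord V4 was compared between the libraries labelled cervical and thoracic, under the labels they carry. Of 10255 genes tested with limma 0 were called (0%), and 185 had an unadjusted p under 0.05. The groups did not overlap for 7.31% of genes. Neither leaving out the cervical and thoracic libraries of the male pool (0 called, 431 at an unadjusted p under 0.05) nor the replicate block (0 called, 475) gave a call. In simulated data of this layout 85.6% of genes changed by 2 on the log2 scale were called, but only 10.9% of those changed by 1. Every simulated library kept its label, so these shares do not apply if libraries were exchanged. They also rest on the simplified settings given above, without low genes among those changed and without an effect of pool or library. The layout without the male libraries was not simulated. *Cartpt* shows the spread, at 57.9, 537 and 16.4 CPM in the cervical and 288, 181 and 283 CPM in the thoracic replicates. *Ccbe1* was at 209, 320 and 190 CPM in the cervical and 352, 176 and 290 CPM in the thoracic replicates, and the groups overlapped for both genes. In both cases cervical replicate 2 was the highest and thoracic replicate 2 the lowest of its group, in the libraries that went against their labels. Without these libraries the cervical values of both genes lay below the thoracic ones, though neither gene was called. Both genes were chosen after their values were seen. The share of all genes that separate in this layout of 2 against 2 was not computed, so no regional pattern is drawn from them.

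The male and female pools differed in V4 by genes of the sex chromosomes. Of 9770 genes tested over 3 libraries of each pool with a term for region, 4 were called by limma (0.0409%), 3 higher (0.0307%) and 1 lower (0.0102%) in the male pool. The pools did not overlap for 13.1% of genes. The male pool had 134 (cervical), 122 (thoracic) and 128 (lumbar/sacral) CPM of *Uty*, and its 3 counterparts from female mice were at 0. *Eif2s3y* and *Kdm5d*, also of the Y chromosome, were higher in the male pool as well, and *Xist* stood at no more than 2.45 CPM there and at 364, 371 and 618 CPM in libraries from female mice. *Uty* and *Xist* passed the filter on low values only through the pool in which they were high, so their calls depend on that filter. The difference of *Xist* was -6.27 ± 0.30 (limma adjusted p = 0.000414) and that of *Uty* 4.73 ± 0.31 (limma adjusted p = 0.00211). *Kdm5d* lost its call without thoracic or lumbar/sacral replicate 3 and with a pseudocount of 1, and *Eif2s3y* with a pseudocount of 1. Each sex was 1 pool, so that sex and pool cannot be told apart. The count rested on single libraries, since 240 genes were called without cervical replicate 2 and 282 without cervical replicate 3. Without both of the male libraries that went against their labels and with region at 2 levels, 1 gene, *Xist*, was called (limma adjusted p = 0.0425). That fit had 1 residual degree of freedom and 1 male library, assumed to vary like the others, and the 3 Y chromosome genes did not pass its filter on low values.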

How the data were processed

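Nuclei of 9 libraries were sorted as GFP+, DRAQ5+ singlets and sequenced with droplet 3′ chemistry. The submitters' processing notes name Cell Ranger 3.1.0, Seurat and the build mm10 (GRCm38). The deposited matrix holds 21457 features as whole-number scores, namely counts that the authors corrected for depth by a regression model (SCTransform) after they had processed the regions apart, so they are not raw molecules. The authors' cluster labels were taken as deposited. No doublet caller was run, so that droplets with several nuclei were not screened for, which sorting of singlets does not replace. The planned count models were not run, because these values are not raw counts.

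For each cluster and library with at least 10 nuclei the corrected counts were added up, scaled to CPM and tested as log2(CPM + 5) with limma 3.58.1 (R 4.3.3), a variance trend and Benjamini-Hochberg adjustment over all genes that reached 10 CPM in 3 sums. The threshold for a call was an adjusted p of 0.05. Libraries were the replicates, 3 per region from 3 pools of mice. Shares of nuclei were compared by exact two-sided permutation tests (scipy 1.17.1). Thinning drew 4000 corrected counts per nucleus. The sums rest on 30 to 145 V4 nuclei, which limits the precision of low genes.

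Libraries that share a replicate number come from the same pool of mice, which is where the pairing comes from. Their deviations from the region means correlated at -0.0736 to 0.572, and those with different numbers at -0.523 to 0.44. Fits with the pool as a replicate block were run as alternatives, beside other pseudocounts, filters, scalings, averaging over nuclei, denominators and leaving out libraries. The named genes were, by rule, the 20 highest and 10 lowest against the other clusters, the 10 largest margins, list members past the fold limit, the 10 highest and 10 lowest called genes of each test and the called members of 31 gene lists, without predicted gene models. A few genes that met the rule are not reported here. The members, lists and tests were chosen with earlier results of these data known. The fits were tested on simulated data of the same layout, with a fixed dispersion, no effect of pool or library and no low genes among those changed.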

Additional observations from a re-analysis of the deposited data

Results flagged for a closer look

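A test of the difference itself found that the lumbar/sacral minus rostral change of V4 differed from that of the mean of V1, V2, V3 and V7 for 491 of 12418 genes tested (3.95%, limma, adjusted p under 0.05), 2.38% with a more positive and 1.58% with a more negative change in V4. Of the 108 genes named for it, 39 kept this under every alternative in which they were tested, 69 lost it under 1 or more, and none changed sign. The values below are log2 differences between the change in V4 and the change in the other clusters, and a positive value means a more positive change in V4. All 108 were named because they were called for a difference from the mean of V1, V2, V3 and V7. Their place against the single clusters is thus no independent support, and its share over all genes tested was not computed. For 93 of the 108 genes the change of V4 lay beyond those of all 4 other clusters, for some by little, as for *Cdh13* (-0.2256 in V4, -0.2175 in V1). For 15 it lay inside their span, namely *Cacna2d3*, *Chrm2*, *Col11a1*, *Efna5*, *Epha3*, *Erbb4*, *Htr7*, *Kcnd2*, *Mme*, *Pcdh9*, *Plch1*, *Prima1*, *Rxfp1*, *Sulf1* and *Tshz2*. Of these *Epha3* changed by 3.19 in V4 and 3.23 in V2, and *Mme* by -1.93 in V4 and -3.14 in V2. The net values do not show which side changed. *Sgcz* changed by 2.82 in V4 and by -0.06 in the mean of the others. *Cntn5*, *Adra1a* and *Ebf3* changed by -0.087, 0.097 and 0.12 in V4, against 2.31, 2.296 and 2.15 in that mean. *Erbb4*, with a negative value below, rose in V4 (1.61, against 3.36). *Chrm2*, with a positive one, fell in V4 (-0.787, against -1.47). Causes were not tested.

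The most positive were those of *Tacr3* (3.21), *Gpc6* (3.01), *Kcnh8* (3.004), *Ebf1* (2.96), *Sgcz* (2.88), *Rspo3* (2.79), *Ano1* (2.76), *Piezo2* (2.75), *Meox2* (2.74) and *Gabrg1* (2.58). The most negative were those of *Lypd6* (-3.32), *Ccbe1* (-3.20), *Cdh8* (-2.86), *Kcnq5* (-2.75), *Fam20a* (-2.59), *Ndst4* (-2.56), *Zfp536* (-2.505), *Cntn5* (-2.40), *Tox* (-2.34) and *Ryr3* (-2.29).

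Of 53 potassium channel genes tested 6 were more positive, *Kcnh8*, *Kcng3* (1.87), *Kcnk2* (1.45), *Kcns3* (1.39), *Kcnh7* (0.95) and *Kcnd2* (0.88), and 6 were more negative, *Kcnq5*, *Kcna4* (-2.12), *Kcnk13* (-1.77), *Kcnt2* (-1.54), *Kcnk10* (-0.95) and *Kcnma1* (-0.61). Among calcium and TRP channel genes *Trpc7* (2.23), *Cacnb2* (2.18) and *Cacna1c* (0.45) were more positive and *Trpm2* (-1.77), *Cacna2d3* (-0.72) and *Cacna2d1* (-0.57) more negative.

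Of 20 GABA and glycine receptors 4 were more positive and none more negative, *Gabrg1*, *Gabre* (1.66), *Gabra2* (1.13) and *Gabbr2* (0.57). Among ionotropic glutamate receptors *Gria1* (1.12), *Grid1* (0.85) and *Gria4* (0.61) were more positive and *Grik1* (-1.37), *Grin2a* (-1.135) and *Gria2* (-0.67) more negative. Of 21 peptide and hormone receptors *Tacr3*, *Prlr* (1.76), *Calcrl* (1.63) and *Oprm1* (1.40) were more positive and *Rxfp1* (-1.77) more negative. Serotonin receptors gave *Htr4* (2.34), *Htr2a* (-1.51) and *Htr7* (-0.71), adrenergic receptors *Adra1b* (1.88) and *Adra1a* (-2.20) and muscarinic receptors *Chrm2* (0.68).

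Of 44 axon guidance genes 6 were more positive, *Dcc* (2.45), *Epha3* (2.10), *Sema3d* (1.62), *Unc5b* (1.46), *Epha6* (0.81) and *Sema6d* (0.81), and 5 more negative, *Ntng2* (-1.51), *Epha7* (-1.50), *Robo2* (-1.21), *Sema3c* (-0.87) and *Efna5* (-0.62). Of 21 cadherins *Cdh10* (1.62), *Pcdh17* (0.93) and *Cdh2* (0.63) were more positive and *Cdh8*, *Cdh6* (-1.67), *Cdh7* (-1.50), *Pcdh9* (-1.17), *Pcdh7* (-1.15) and *Cdh13* (-0.55) more negative. Of 26 matrix genes *Gpc6*, *Fras1* (2.05), *Tnr* (1.77) and *Postn* (1.69) were more positive and *Ccbe1* and *Sulf1* (-1.21) more negative. Collagens gave *Col11a1* (1.59), *Col6a1* (1.415), *Col14a1* (1.34) and *Col24a1* (-2.05).

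Of 43 transcription factors *Ebf1*, *Isl1* (1.49), *Tshz2* (0.98), *Zeb1* (0.96) and *Npas3* (0.86) were more positive and *Tox*, *Zeb2* (-2.26) and *Ebf3* (-2.03) more negative. Trophic factor genes gave *Lifr* (1.61), *Erbb4* (-1.75), *Gfra3* (-1.48), *Nrg1* (-0.99) and *Nrg3* (-0.67), and the VEGF-C group *Vegfc* (-1.64) beside *Ccbe1*. *Hoxd11* (-1.55) was called with V4 at 0 in all rostral libraries, so that its fitted difference depends on the pseudocount. Markers of visceral subtypes from the study, chosen on these nuclei, gave *Fgf10* (2.34), *Agmo* (2.055), *Agbl1* (1.955) and *Necab1* (-1.998), and visceral markers *Cpne4* (1.83), *Nos1* (1.045) and *Mme* (-0.78). The others were *Zbtb16* (1.54) and *Plch1* (-1.33) of skeletal motor neuron markers, *Prkg1* (-1.58) of cyclic GMP signalling, *Pcsk1* (-1.24) and *Pam* (-0.65) of peptide processing and *Prima1* (-0.77), which anchors acetylcholinesterase.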

How the results depend on the processing

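The share of V4 among visceral nuclei, lumbar/sacral minus rostral, was -0.85 percentage points and turned positive without V8 in the denominator (3.85), without replicate 1 (0.441) and without thoracic replicate 1 (0.195). Leaving out replicates or libraries gave -1.92 to 0.441, and -6.18 to -2.74 for cervical minus thoracic. Against 136 genes higher and 79 lower in V4 than in the other clusters, a pseudocount of 1 gave 231 higher, a pseudocount of 20 gave 70 higher and 50 lower, and the highest or lowest other cluster as reference gave 3 and 1. Among alternatives added after seeing the data, rostral libraries alone gave 136 lower genes, and lumbar/sacral libraries alone 386 higher and 159 lower.

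The pool as a replicate block raised the calls between lumbar/sacral and rostral V4 from 281 to 432, and all 281 were among them. It gave 435 for the regional difference against the other clusters and 0 between cervical and thoracic V4. For shares of nuclei the block allowed no p below 0.25. The male and female pools allow no block, because the pool is the contrast.

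Leaving out replicates or libraries moved the 281 calls to between 61 and 311. The lowest counts came without replicate 1 (61), replicate 3 (88), replicate 2 (128) and lumbar/sacral replicate 1 (128), replicate 2 (139) and replicate 3 (167), with fewer samples in each. The median of ratios scaling moved the median log2 difference of all genes from 0.10 to 0.000766 and gave 139 higher and 141 lower calls. Cervical against thoracic V4 gave 0 to 1 calls, the single one without cervical replicate 2. The male and female pools gave 2 calls with a pseudocount of 1, 11 with no filter, 0 with 10 corrected counts in every sum and 1 to 282 when libraries were left out (1 without both male libraries that went against their labels, with region at 2 levels, added after seeing the data), and the cause was not tested. The regional difference against the other clusters gave 491 calls, 259 with no filter, 193 with 10 corrected counts in every sum, where fewer genes were tested, and 212 with the trend over the mean difference, also added after seeing the data. Leaving out replicates or libraries gave 211 to 483 of these calls, with 211, 299 and 316 without replicates 1, 2 and 3.

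In simulated data of these layouts, under the simplified settings given above, genes changed by 1 on the log2 scale were called in 10.3 to 27.2% of cases. Regions were processed apart, lumbar/sacral nuclei were shallower, and each sex is 1 pool.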
